A study of Mus musculus with 72 samples.

Results

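The genes described here are the aminoacyl-tRNA synthetases, taken by symbol from the table of sense gene counts: every row whose symbol is 1 capital letter followed by "ars" and an optional 1 or 2, and in addition Eprs, Farsa, Farsb and Tarsl2. This name rule, which used no measured value, gave 38 of the 27846 genes in the table, and all 38 passed the filter on low counts that left 15066 genes for testing. By the known location of their enzymes, 19 serve the cytosol, 17 serve the mitochondrion and 2, Gars and Kars, serve both. The transcripts were measured by poly(A) selected, stranded RNA sequencing of whole liver from wild type C57bl6 mice, 8 to 16 weeks old. The groups were misaligned females, control females, misaligned males and control males, each sampled at 6 clock times (0, 4, 8, 12, 16 and 20 h) with 3 libraries per clock time, which gives 18 libraries per sex and treatment and 72 in all. Every group, controls included, lived under 12 h of light and 12 h of darkness and ate a diet with 42% of its calories from fat from the first week of the control or misalignment schedule. The labels give neither the schedule that made a mouse misaligned nor how long it lasted, and they number the replicates without saying that each is a separate mouse, so p-values measure the spread between these libraries.

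Aminoacyl-tRNA synthetases join each amino acid to its tRNA and so supply the ribosome with charged tRNA. Cytosolic and mitochondrial protein synthesis use mostly separate enzymes, all of them encoded in the nucleus. Several cytosolic synthetases sit in a multisynthetase complex held together by the scaffold proteins Aimp1, Aimp2 and Eef1e1. Uncharged tRNA activates the kinase Eif2ak4 (GCN2), whose signal through the transcription factor ATF4 induces amino acid transporters, biosynthetic enzymes and many cytosolic synthetase genes. In liver, feeding and the circadian clock both set daily rhythms in genes of protein synthesis.

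The deposited counts had nearly equal totals of 11551524 to 12529963 reads per library. Values are given as CPM, counts scaled to library size after TMM normalization. No 2 libraries held identical counts, and Xist and 2 Y-linked genes went against the labelled sex in 0 libraries. As a check of the labelled tissue, 8 hepatocyte markers summed to between 71920 and 139200 CPM in every library. Antisense reads came to at most 0.554% of the sense reads of any member, in Qars. In whole tissue, fewer cells of a type and less RNA per cell cannot be told apart.

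All 38 genes were detected in every library, over a wide range of levels. Compared per length, as CPM per kb of annotated exon averaged over the 4 groups, the cytosolic genes had a median of 8.28, with Nars (asparaginyl-tRNA synthetase) highest at 24.3 and Tarsl2 lowest at 1.98. The mitochondrial genes had a median of 3.32, with Iars2 (isoleucyl) highest at 9.92 and Mars2 (methionyl) lowest at 0.306. The genes that serve both compartments lay among the upper cytosolic ones, Gars (glycyl) at 15.7 and Kars (lysyl) at 12.95. Mars2 is thinly covered, with 15 to 68 reads per library.

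The order at the top was not tested. In misaligned males Nars stood at 25.6 ± 2.27 and Aars (alanyl) at 23.6 ± 2.89 CPM per kb, against 25.3 ± 3.34 and 22.8 ± 3.88 CPM per kb in control males (SD, n = 18 each). The neighbours thus lay within about 1 SD of each other. That SD is a spread over single libraries, clock times included, and not the error of a mean. Tars (threonyl), the next gene, had the widest spread of the family: 19.9 ± 5.97 CPM per kb in misaligned males against 22.05 ± 10.1 in control males (SD, n = 18 each), most of it spread between clock times as described below.

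**Figure D1:**
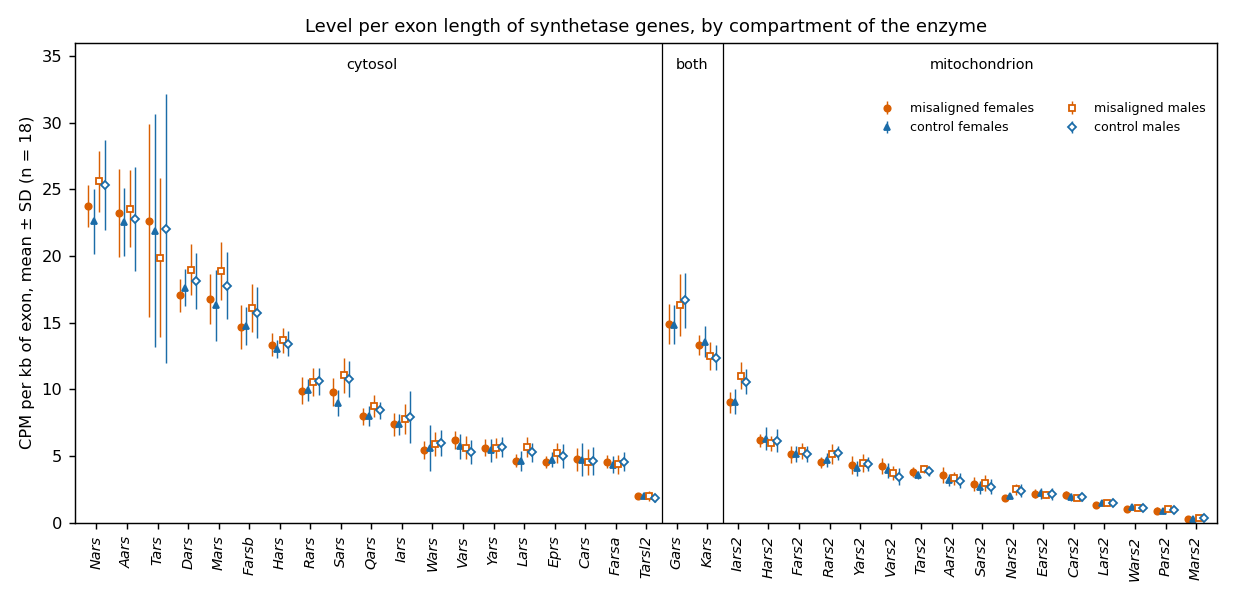
Level of 37 of the genes as CPM per kb of exon (vertical axis), grouped on the horizontal axis by where the enzyme works; points are means and bars SDs over 18 libraries, for misaligned females, control females, misaligned males and control males. The cytosolic genes extend up to Nars at 24.3, the mitochondrial genes up to Iars2 at 9.92, and the bars are widest for Tars.

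Kars makes both of its enzymes from 1 gene by splicing, the first exon joined directly to a shared exon in the cytosolic form and an alternative second exon included in the mitochondrial form. On chromosome 8 (GRCm38) the junction that skips the second exon spans 112005789 to 112011209, and the junction from the second exon spans 112005789 to 112008206. Skipping reads made up 59.0% of both junctions in misaligned females (296 and 206 reads, 95% Wilson interval 54.6 to 63.2%), against 58.1% in control females (289 and 208 reads, 53.8 to 62.4%). The share was 59.3% in misaligned males (302 and 207 reads, 55.0 to 63.5%), against 60.3% in control males (285 and 188 reads, 55.8 to 64.6%). All 4 intervals overlap, so no difference was detectable at this depth; the intervals cover counting error only.

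Daily rhythm was tested per gene by a cosine and sine of 24 h in edgeR's quasi-likelihood fit, with p-values adjusted by Benjamini-Hochberg over the 15066 genes and a threshold of 0.05; amplitude is the log2 distance from mean to peak. In misaligned females 4 of the 38 genes passed (10.5%), against a background of 7.69% of all genes: Cars, Tars, Qars and Cars2. In control females 9 passed (23.7%), against 12% of all genes: Cars, Wars, Tars, Lars, Nars, Yars, Qars, Mars and Cars2. In misaligned males 0 passed, against 0.00664% of all genes, with 8 members at an unadjusted p under 0.05; limma-voom also called 0 and DESeq2 called 1, Cars. In control males 6 passed (15.8%), against 10.8% of all genes: Cars, Tars, Nars, Iars, Cars2 and Sars.

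The genes called rhythmic were mostly cytosolic. In controls, 8 of the 19 cytosolic genes were rhythmic in females (42.1%) and 5 in males (26.3%), whereas 1 of the 17 mitochondrial genes (5.88%), Cars2, was rhythmic, in both sexes. Median amplitudes of cytosolic and mitochondrial genes were 0.1313 and 0.1069 in control females and 0.136 and 0.0969 in control males. Under misalignment they were 0.1305 and 0.1313 in females and 0.1104 and 0.0764 in males. Mitochondrial genes also had lower levels per length, and the part of read depth in the calls was not tested. Counted over both control groups, 11 genes were rhythmic in at least 1, of which 10 were cytosolic, and 4 in both: Cars, Tars, Nars and Cars2. Most members varied little. The median amplitude over the 38 genes was 0.130 in misaligned females, 0.113 in control females, 0.0771 in misaligned males and 0.119 in control males. These lay below the medians over all tested genes of 0.159, 0.173, 0.126 and 0.168 in the same order of groups. A fitted amplitude is never negative and noise raises it, and the part of read depth in this comparison was not tested.

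Over all 12 comparisons described here, 19 members passed in none: Aars, Aars2, Dars, Ears2, Eprs, Fars2, Farsa, Farsb, Hars, Hars2, Lars2, Mars2, Pars2, Sars2, Tars2, Tarsl2, Vars, Wars2 and Yars2.

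The control-female count leans on 1 library. Leaving out replicate 1 of the control females at 16 h lowered it to 6 members (Wars, Lars and Qars dropped out), against 10.8% of all genes in the same fit. Wars (tryptophanyl), a known interferon gamma target, had 41.9 CPM in that library, against 19.03 and 21.6 CPM in the other libraries of its group and at most 28.3 CPM in any other library. That library also had 2032 CPM summed over 12 interferon gamma target genes (next highest library 652, median 352), 2178 CPM of Kupffer cell markers (next highest 1165) and 34.1 CPM of lymphocyte markers (next highest 28.6). Of the 12 interferon gamma targets, 9 were rhythmic in control females with the library and 2 without it, and the adjusted p of Wars was 0.0108 with it and 0.260 without it.

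**Figure D2:**
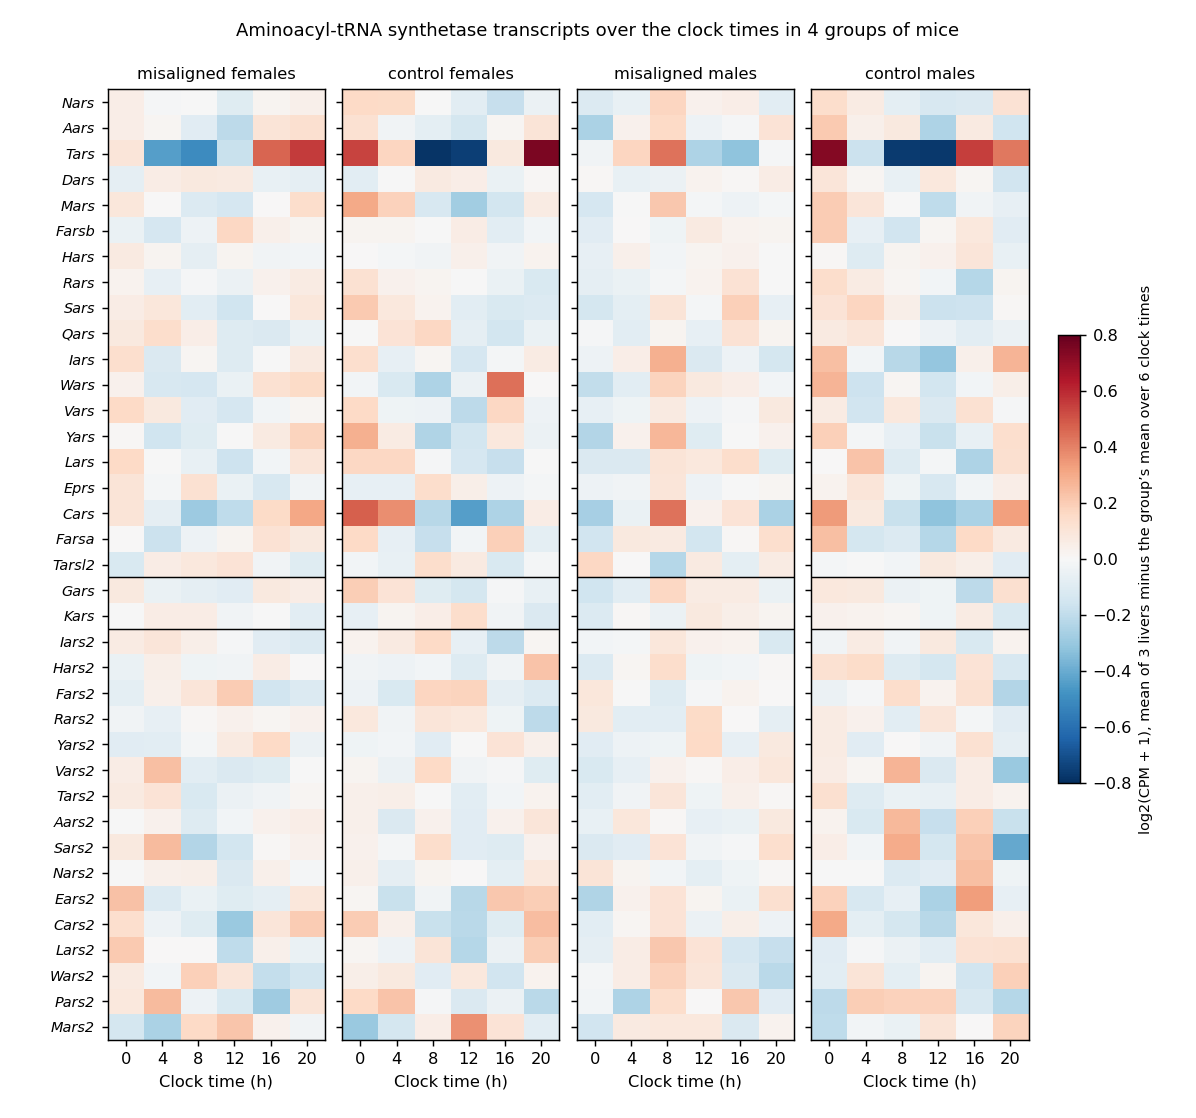
Each panel is 1 group, each row a gene (cytosolic genes above the first line, Gars and Kars between the lines, mitochondrial genes below) and each column a clock time in h; colour is the mean log2(CPM + 1) of 3 libraries minus that group's mean over the 6 clock times. The deepest colours are in the rows of Tars and Cars, and their blue and red columns stand at different clock times in misaligned males and control males.

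Misalignment changed the rhythm of 10 of the 38 genes in males (26.3%), against a background of 9.23% of all genes: Cars, Tars, Iars, Nars, Sars, Gars, Cars2, Yars, Rars and Lars. They included 8 of the 19 cytosolic genes (42.1%), 1 of the 17 mitochondrial genes (5.88%) and Gars, which serves both. In females 1 member passed, Cars, against 0.192% of all genes. All 10 genes peaked before 6 h or after 18 h in control males, and 6 of them had passed the rhythm test there. In misaligned males their fitted peaks lay between 4.56 h (Tars) and 14.6 h (Rars), although 0 of them passed the rhythm test in that group. The core clock moved in the same comparison: 14 of 19 core clock genes changed in males and 2 in females, and the part of the clock in the synthetase changes was not tested.

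Tars, the cytosolic threonyl-tRNA synthetase, had the largest amplitude of the family in each of the 4 groups. In misaligned males the 3 libraries had 151, 195 and 121 CPM at 8 h and 98.7, 86.3 and 86.0 CPM at 16 h, against 64.7, 67.7 and 73.9 CPM at 8 h and 126, 252 and 162 CPM at 16 h in control males. The ranges did not overlap at either clock time, and their order was opposite: misaligned males were above controls at 8 h and below them at 16 h. At 0 h misaligned males had 89.7, 88.8 and 170 CPM, against 181, 184 and 227 CPM in control males, again without overlap.

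The fitted Tars curve peaked at 4.56 ± 1.26 h in misaligned males, with an amplitude of 0.30 ± 0.10, against 20.98 ± 0.46 h and 0.83 ± 0.10 in control males (SE, n = 18 each). The peak lay 7.58 ± 1.34 h later on the 24 h circle, and the adjusted p of the change by edgeR was 9.28e-06. In control males the curve spanned 3.15-fold from trough to peak. Over the fits that each left out 1 library, the adjusted p ranged from 1.59e-06 to 6.70e-05.

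In misaligned females Tars had 86.9, 68.1 and 122 CPM at 8 h and 174, 200 and 158 CPM at 16 h, against 73.6, 69.6 and 62.8 CPM at 8 h and 105, 127 and 148 CPM at 16 h in control females. The female groups overlapped at 8 h and did not at 16 h. The fitted peak was at 18.8 ± 0.66 h in misaligned females with an amplitude of 0.57 ± 0.10, against 21.96 ± 0.46 h and 0.83 ± 0.10 in control females (SE, n = 18 each). The peak stood 3.18 ± 0.80 h earlier, with an adjusted p of 0.083 for the change, over the threshold. DESeq2 gave 0.0231 for the same change, a filter at a mean of 5 CPM gave 0.0445, and a fit of the female libraries alone gave 0.00289. The change did not pass by limma-voom, with no filter, with clock time as a factor or with the replicate number as a block. Nor did it pass with the libraries of any replicate number left out.

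Tars lies on the minus strand of chromosome 15, 11382301 to 11399665 (GRCm38, GENCODE vM21). Its promoter is shown because it held matches to 3 of 5 motifs searched, more than that of any other member. The 250 bases before the RefSeq transcription start are chr15:11399659-11399908 (GRCm38.p6, minus strand), with the match to the C/EBP-ATF response element, the site type bound by ATF4 with C/EBP partners, in capitals.
Tars: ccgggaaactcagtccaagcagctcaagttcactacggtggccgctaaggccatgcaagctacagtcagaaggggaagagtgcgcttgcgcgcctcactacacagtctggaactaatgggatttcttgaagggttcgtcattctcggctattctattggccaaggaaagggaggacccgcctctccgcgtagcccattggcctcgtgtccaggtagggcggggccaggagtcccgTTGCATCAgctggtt
The match starts 15 bases before the start site, on the reverse strand of the promoter. Tars also held an E-box and 2 NRF1 matches within the wider window searched.

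Promoters of 250 bases before to 50 after the start were found in RefSeq for 28 of the 38 genes, and each motif was searched on both strands. The C/EBP-ATF response element (TGATGNAA) was found in 5 of the 28 (17.9%): Aars, Gars, Iars, Tars and Yars, against 3.97% of all 32851 promoters. The E-box (CACGTG), the site of the CLOCK and BMAL1 proteins, was found in 5 (Aars, Ears2, Farsb, Iars and Tars; 7.15% of all promoters). The NRF1 site was found in 5 (Farsb, Iars2, Kars, Mars2 and Tars; 4.6% of all), the RORE (NAGGTCA) in Eprs and Fars2 (16.2% of all) and the D-box (TTANGTAA) in 0 (2.32% of all). Matches of different motifs overlapped in 0 places in these promoters, and a match of letters is not evidence of binding.

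For each of the other 4 genes 1 C/EBP-ATF match is printed with 11 bases on either side, since 3 of these 4 genes (Gars, Iars and Yars, not Aars) changed rhythm in males. They lie at chr8:111033840-111033869 (Aars), chr6:55037960-55037989 (Gars), chr13:49682126-49682155 (Iars) and chr4:129189895-129189924 (Yars), all on the plus strand of GRCm38.p6.
Aars: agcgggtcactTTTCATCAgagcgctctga
Gars: tggctgcgctaTTTCATCAtgcaccgggcg
Iars: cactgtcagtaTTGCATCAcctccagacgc
Yars: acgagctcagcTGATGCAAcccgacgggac
Aars showed an adjusted p of 0.39 for the change in males by edgeR, with an amplitude of 0.07 ± 0.06 under misalignment, against 0.12 ± 0.06 in male controls (SE, n = 18 each).

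Intron reads, which come mostly from unspliced transcripts, gave the same order for Tars. They peaked at 3.99 ± 1.00 h in misaligned males, with an amplitude of 0.45 ± 0.12, against 19.8 ± 0.59 h and 0.76 ± 0.12 in control males (SE, n = 18 each). Tars was the only one of 36 members tested on introns to change with misalignment in males (adjusted p of 0.000122 by edgeR, against a background of 1.83% of 11201 genes) and to differ between the sexes in that change (adjusted p of 0.00236, background 0.5%). On introns it was rhythmic in misaligned females (background 2.12%), control females (4.03%, with Cars the only other member) and control males (2.56%). Its intron counts were 48 to 177 per library in misaligned males and 53 to 227 in control males.

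Cars, the cytosolic cysteinyl-tRNA synthetase (chromosome 7, 143557230 to 143600090, minus strand), was the only member whose rhythm changed with misalignment in both sexes. In misaligned males it had 17.7, 24.3 and 33.7 CPM at 0 h and 41.3, 41.5 and 37.9 CPM at 8 h, against 37.7, 39.0 and 37.97 CPM at 0 h and 28.1, 20.9 and 31.2 CPM at 8 h in control males. The male groups did not overlap at either clock time, with misaligned males below controls at 0 h and above them at 8 h. At 20 h misaligned males had 21.2, 26.9 and 26.1 CPM, against 41.6, 42.0 and 31.2 CPM in control males.

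The fitted Cars peak was at 9.73 ± 0.85 h in misaligned males, against 23.4 ± 0.65 h in control males, a difference of 10.3 ± 1.07 h (SE, n = 18 each; adjusted p by edgeR 7.13e-06). The amplitudes were 0.29 ± 0.06 in misaligned males and 0.37 ± 0.06 in control males. The Cars rhythm in misaligned males had an unadjusted p of 0.000145 by edgeR and an adjusted p of 0.128 (0.0445 by DESeq2). The group thus kept an amplitude near that of controls without passing the adjusted threshold, which 0.00664% of all genes passed there.

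In females the Cars groups differed at other clock times. Misaligned females had 35.6, 33.8 and 34.1 CPM at 16 h and 28.7, 30.2 and 29.5 CPM at 4 h, against 23.1, 24.7 and 28.0 CPM at 16 h and 36.8, 40.7 and 40.3 CPM at 4 h in control females. Neither clock time showed overlap: misaligned females were above controls at 16 h and below them at 4 h. The peak was at 20.3 ± 0.80 h in misaligned females, with an amplitude of 0.30 ± 0.06, against 0.84 ± 0.50 h and 0.48 ± 0.06 in control females (SE, n = 18 each), 4.50 ± 0.95 h earlier (adjusted p by edgeR 0.0204). Leaving out replicate 2 of the control females at 4 h raised that p to 0.0517. The change also did not pass with clock time as a factor or with the libraries of any replicate number left out (adjusted p by edgeR up to 0.471).

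The difference between the sexes in the change was tested as an interaction. It passed for 2 of the 38 members, against 1.73% of all genes: Tars (adjusted p by edgeR 0.0035) and Cars (0.0039). In females the peak of both genes came earlier in misaligned than in control mice. In males the peaks of misaligned and control mice lay 7.58 ± 1.34 h apart for Tars and 10.3 ± 1.07 h apart for Cars (SE, n = 18 each), and neither rhythm passed in misaligned males. For Cars this is within 2 SE of opposite phase, so earlier and later cannot be told apart there. Leaving out any 1 library kept these p-values at or below 0.00868 for Tars and 0.00990 for Cars. With all 24 libraries numbered replicate 1 left out, 0 of these calls passed, and with all those numbered replicate 2 left out 1 passed. The rhythms of control females and control males differed in 0 members by edgeR, against 0% of all genes, with 1 member (Wars) at an unadjusted p under 0.05 and 0 by limma-voom and by DESeq2.

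**Figure D3:**
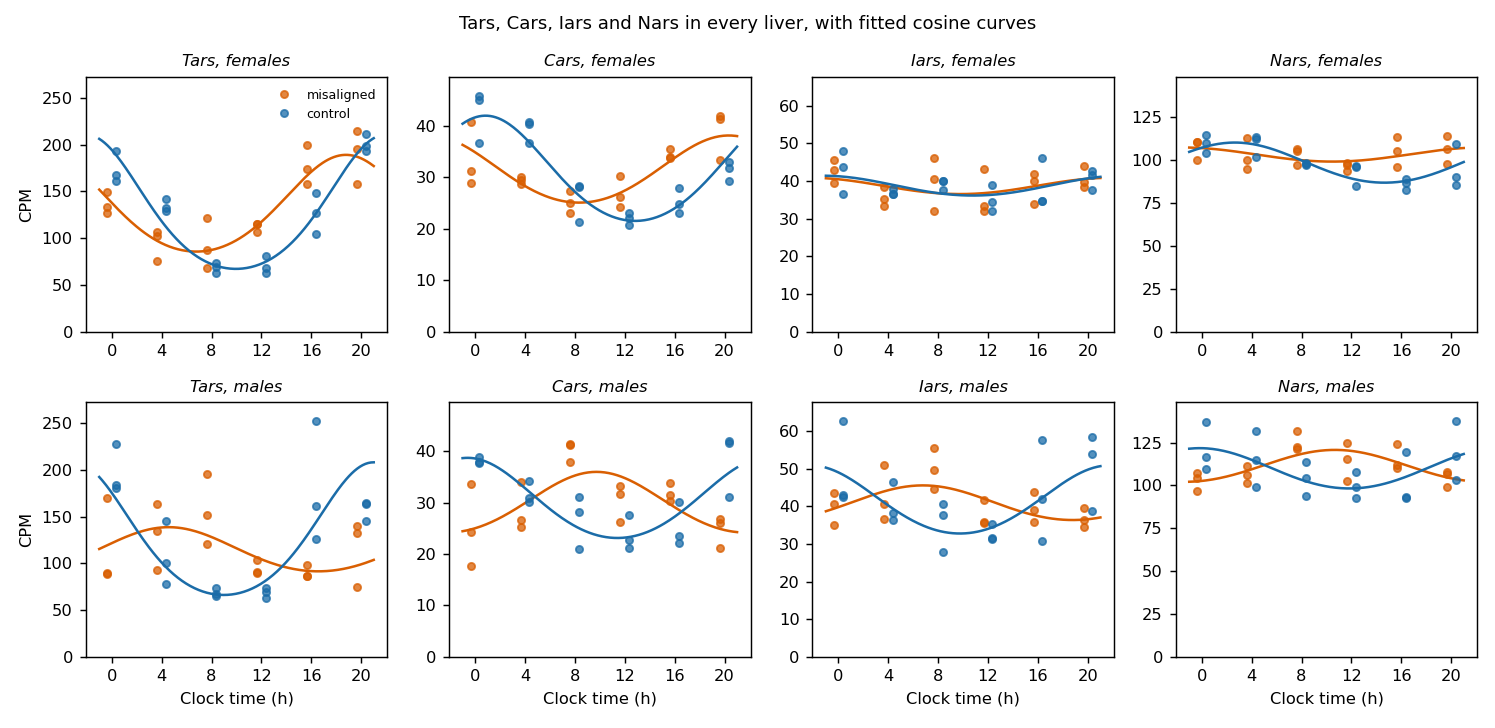
CPM of Tars, Cars, Iars and Nars (columns) against clock time in h, in females (upper row) and males (lower row), each point 1 library and each curve the fitted cosine, in orange for misaligned and blue for control mice. In males the Tars and Cars curves of misaligned mice lie above those of controls at 8 h and below them at 0 and 20 h.

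The remaining genes that changed in males had smaller amplitudes. Iars, the cytosolic isoleucyl enzyme of the multisynthetase complex (chromosome 13, 49682100 to 49734267, plus strand), had 44.6, 55.5 and 49.6 CPM at 8 h in misaligned males, against 27.7, 37.6 and 40.7 CPM in control males, with no overlap. Its fitted peak was at 6.78 ± 1.53 h in misaligned males with an amplitude of 0.16 ± 0.07, against 21.7 ± 0.79 h and 0.32 ± 0.07 in control males (SE, n = 18 each; adjusted p by edgeR 0.00217). In females Iars was flat, with amplitudes of 0.08 ± 0.07 in misaligned and 0.10 ± 0.07 in control mice and an adjusted p of 0.996 for the change.

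Nars, which had the highest mean level per length, within about 1 SD of Aars, had 121, 132 and 122 CPM at 8 h in misaligned males, against 94.0, 105 and 114 CPM in control males, and 107, 96.6 and 105 CPM at 0 h, against 117, 110 and 137 CPM in control males. Misaligned males were thus above controls at 8 h and below them at 0 h, without overlap at either. The peak stood at 10.7 ± 1.28 h in misaligned males, with an amplitude of 0.12 ± 0.04, against 23.8 ± 1.00 h and 0.15 ± 0.04 in control males (SE, n = 18 each; adjusted p by edgeR 0.00294).

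Sars, the cytosolic seryl enzyme (chromosome 3, 108424865 to 108445209, minus strand), had 64.9, 66.2 and 63.2 CPM at 16 h in misaligned males, against 48.8, 48.2 and 50.4 CPM in control males. These values lay well apart, whereas at 4 h the groups overlapped, with 42.7, 65.9 and 54.5 CPM against 73.3, 55.2 and 59.8 CPM in control males. Its peak was at 12.8 ± 1.47 h in misaligned males, against 2.54 ± 0.95 h in control males (SE, n = 18 each; adjusted p by edgeR 0.00463). Its rhythm in control males passed at 0.0133, and 1 library, replicate 1 of the control males at 4 h, decided it: the adjusted p was 0.0683 without it.

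Gars (chromosome 6, 55038007 to 55079500, plus strand) peaked at 11.6 ± 1.31 h in misaligned males, against 0.83 ± 1.57 h in control males (SE, n = 18 each; adjusted p by edgeR 0.0288). Cars2, the mitochondrial cysteinyl enzyme (chromosome 8, 11513977 to 11550783, minus strand), was nearly flat in misaligned males with an amplitude of 0.06 ± 0.06, against 0.22 ± 0.05 in control males (SE, n = 18 each; adjusted p by edgeR 0.0357). At 0 h its 3 libraries had 11.2, 13.4 and 14.1 CPM in misaligned males, against 16.2, 17.2 and 18.8 CPM in control males, without overlap. Its rhythm in control males passed at 0.0122 and had an adjusted p of 0.0506 without replicate 3 of the control males at 0 h.

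Yars (tyrosyl), Rars (arginyl) and Lars (leucyl) changed in males with adjusted p-values of 0.0359, 0.041 and 0.0491 and amplitudes of at most 0.17 in either male group. These calls, with those of Gars and Cars2, lie near the threshold: leaving out 1 library ended the call for 4 such libraries in Gars, 10 in Yars, 12 in Cars2, 13 in Rars and 48 in Lars. The count of changed members fell to 6 of 38 without any 1 of replicate 3 of the control males at 12 h, replicates 1 and 2 of the misaligned males at 0 h and replicate 2 of the misaligned males at 8 h. Tars, Cars, Iars, Nars and Sars passed whichever single library was left out.

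Mars, the cytosolic methionyl enzyme of the complex (chromosome 10, 127296221 to 127311786, minus strand), passed the rhythm test in control females and in no other group. In misaligned females it had 68.3, 69.1 and 47.7 CPM at 0 h and 54.4, 50.8 and 50.6 CPM at 12 h, against 64.9, 69.1 and 71.2 CPM at 0 h and 43.7, 42.2 and 50.5 CPM at 12 h in control females. The groups overlapped at 0 h, and at 12 h the highest control stood just under the lowest misaligned value. Its amplitude was 0.15 ± 0.05 in misaligned females (adjusted p 0.129), against 0.29 ± 0.05 in control females (SE, n = 18 each; adjusted p by edgeR 8.96e-05). The change itself did not pass in females (adjusted p 0.506) or in males (0.0783).

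**Figure D4:**
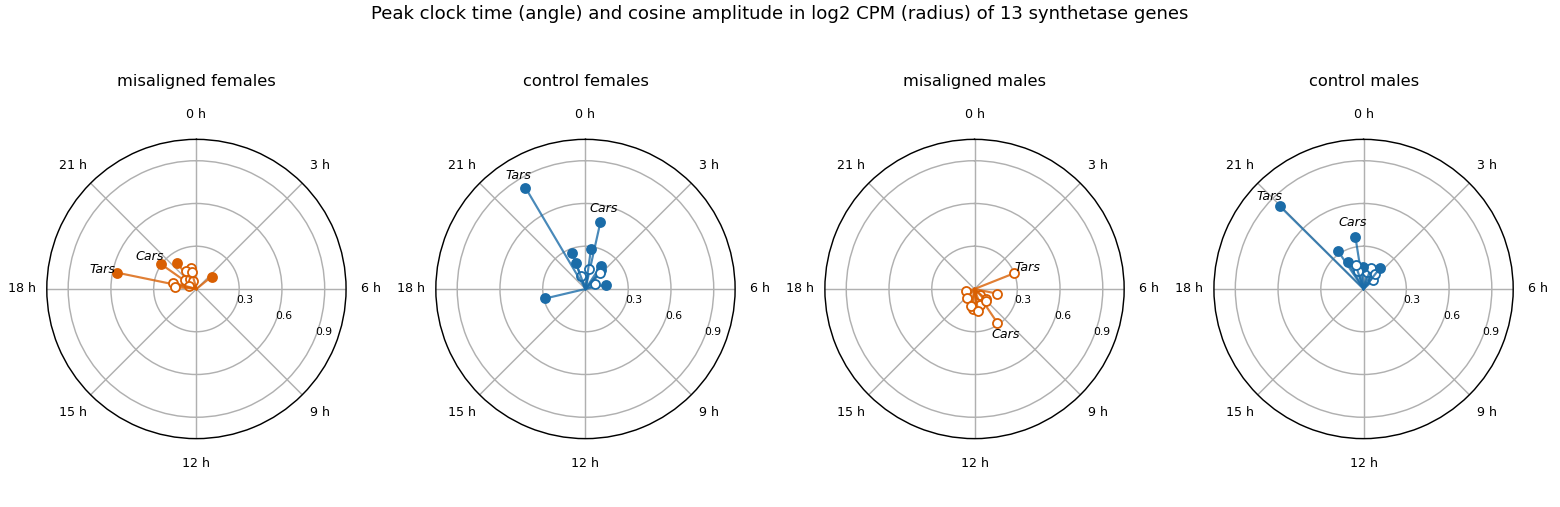
Polar plots of the 13 members that passed at least 1 test of rhythm or of rhythm change, in misaligned females, control females, misaligned males and control males. Gars and Rars passed no rhythm test on clock time, only the test of change in males. The angle is the fitted peak clock time in h and the radius the amplitude in log2 CPM. Filled points mark genes that passed the rhythm test in that group. In control males the points fan out around 0 h, with Tars at 20.98 h, whereas in misaligned males they lie between 4.56 and 17.1 h and none is filled.

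Each liver's own clock phase was then read from 14 core clock genes, none of them a synthetase, and used in place of clock time (molecular time). All 14 had passed the rhythm test in both control groups of these same data. That choice favours control livers with small shifts, so the scale is not independent of the control groups. Relative to clock time this molecular time had a median shift of 2.17 h in misaligned females (range -0.204 to 5.82 h), against -0.26 h in control females. In misaligned males the median shift was -5.85 h, against 0.17 h in control males. The misaligned male livers were scattered, with 8 of 18 within 3 h of their median, against 18 of 18 in control males. Shifts in misaligned males ran from -11.98 to 1.88 h, apart from replicate 1 at 4 h with 10.9 h. On the 24 h circle that value lies next to -11.98 h. The median takes the shifts as written, not on the circle. With molecular time, 6 members passed the rhythm test in misaligned males, against 11.6% of all genes: Cars, Tars, Lars, Nars, Gars and Sars. Clock time had given 0.

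On that scale the Tars and Cars peaks in misaligned males stood close to those of control males on clock time. Tars peaked at 21.2 ± 0.43 h of molecular time with an amplitude of 0.68 ± 0.12 (adjusted p by edgeR 0.000137), and Cars at 0.74 ± 0.64 h with 0.39 ± 0.06 (adjusted p 7.49e-06; SE, n = 18). Of the others that passed, Nars peaked at 3.44 ± 1.71 h, against 23.8 ± 1.00 h in control males on clock time. Gars peaked at 3.18 ± 1.45 h, against 0.83 ± 1.57 h in control males. Lars stood at 3.56 ± 1.70 h against 1.91 ± 1.51 h, and Sars at 3.88 ± 1.43 h against 2.54 ± 0.95 h. In misaligned females 5 members passed with molecular time, against 9.37% of all genes: Cars, Tars, Qars, Cars2 and Sars. The Tars peak there was at 20.6 ± 0.61 h and the Cars peak at 22.7 ± 0.94 h (SE, n = 18). These fits take molecular time as known and do not carry its error.

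Averaged over the 6 clock times, misalignment changed the level of 0 members in either sex. In females 0 of 38 passed by edgeR (background 0.00664% of all genes), with 5 at an unadjusted p under 0.05 and 0 by limma-voom and by DESeq2. The log2 differences ran from -0.19 for Lars2 to 0.17 for Aars2, with a median of 0.013 over the members and -0.001 over all genes. In males 0 of 38 passed (background 0%), with 0 at an unadjusted p under 0.05 and 0 by the other tools, and the differences ran from -0.06 for Farsa to 0.17 for Sars2, with a median of 0.036 over the members and 0.0064 over all genes. The difference between the sexes in this mean effect passed in 0 members (background 0%, 1 member at an unadjusted p under 0.05, 0 by the other tools). Sars in misaligned females had the smallest p, with a difference of 0.13 ± 0.05 and an adjusted p of 0.66 (SE, n = 18 each).

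Between the sexes, levels in controls differed in 11 of the 38 members (28.9%), close to the background of 32.9% of all genes. Kars and Vars2 were higher in control females (background 16%), and 9 were lower, among them Sars, Iars2, Nars, Nars2, Lars, Gars, Rars2 and Mars (background 17%). The median log2 difference was -0.08 over the members and 0.0065 over all genes. By compartment 4 of the 19 cytosolic genes differed, all lower in females, and 5 of the 17 mitochondrial genes, 1 higher and 4 lower.

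Sars had 36.9, 46.1 and 59.3 CPM (lowest, median, highest) in control females, against 45.1, 55.3 and 73.3 CPM in control males. The ranges overlapped, but females averaged lower at each of the 6 clock times, by a log2 difference of -0.27 ± 0.05 (SE, n = 18 each; adjusted p by edgeR 7.08e-06). Iars2, the mitochondrial isoleucyl enzyme and the highest of its compartment per length (chromosome 1, 185284726 to 185329396, minus strand), had 61.3, 81.7 and 94.6 CPM in control females, against 78.4, 94.6 and 106 CPM in control males. Its difference was -0.22 ± 0.04, with females lower at all 6 clock times (SE, n = 18 each; adjusted p by edgeR 5.50e-05).

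Kars had 51.3, 59.3 and 71.2 CPM in control females, against 46.4, 54.1 and 65.4 CPM in control males, and was higher in females at all 6 clock times by 0.13 ± 0.04 (SE, n = 18 each; adjusted p by edgeR 0.00586). Nars (-0.17 ± 0.04), Nars2 (-0.26 ± 0.08) and Lars (-0.20 ± 0.06) were lower in females at all 6 clock times, and Gars (-0.17 ± 0.05) at all but 1 (SE, n = 18 each). The calls of Vars2, Rars2 and Mars were ended by leaving out any of 3, 6 and 15 single libraries.

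Introns gave lower values in control females for Lars (-0.41), Sars (-0.37), Nars2 (-0.54), Qars (-0.56) and Gars (-0.26) and higher values for Hars2 (0.38), all on the log2 scale and past the threshold, against 14.6% of all genes tested on introns. Of these 6 genes Lars, Sars, Nars2 and Gars were also lower in females on exons.

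**Figure D5:**
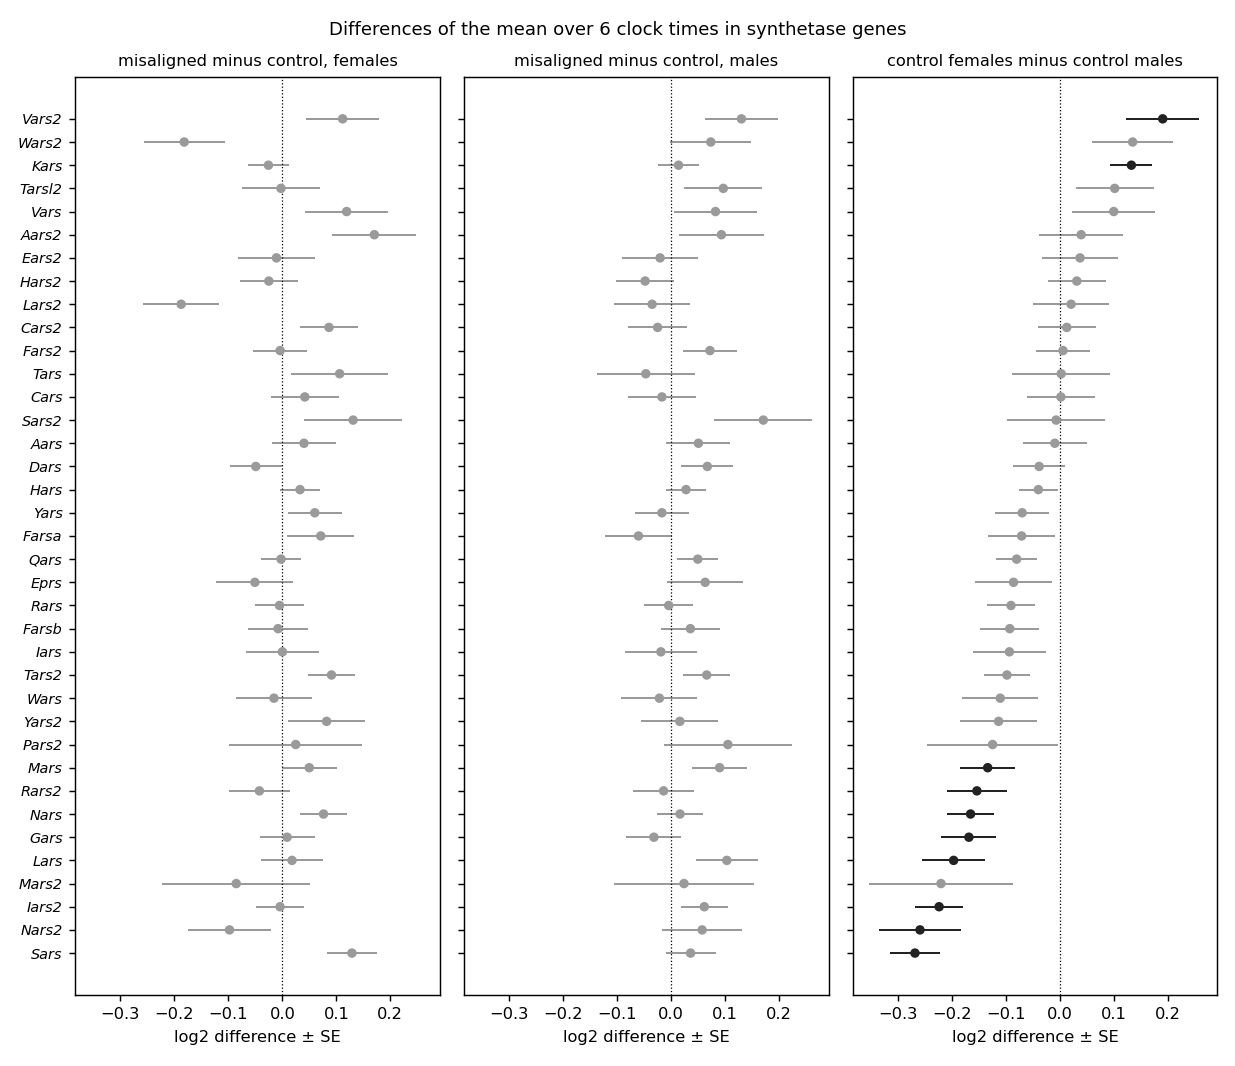
Log2 difference (horizontal axis) with SE for 37 of the genes (rows) in 3 comparisons: misaligned minus control in females, misaligned minus control in males, and control females minus control males; black points passed the threshold of 0.05 and grey points did not. All points of both misalignment panels are grey, and the right-hand panel has 10 black points, 8 of them left of 0.

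Cell type markers differed between the sexes as well. Summed over 7 Kupffer cell markers, control females had 416, 688 and 2178 CPM (lowest, median, highest), against 240, 513 and 741 CPM in control males. The 2178 CPM is from replicate 1 of the control females at 16 h, the library with the highest Wars value. Summed over 7 stellate cell and fibroblast markers, control females had 343, 451 and 635 CPM, against 357, 804 and 1923 CPM in control males, and the 8 hepatocyte markers had medians of 110400 and 83970 CPM. Red blood cell and platelet markers (8 genes) summed to 101, 351 and 952 CPM in control females, against 151, 200.5 and 618.5 CPM in control males. Of those 8, 6 passed as higher and 1 as lower in females, with a median log2 difference of 1.504, the largest in size of the marker lists. Of the other lists, 4 of 7 Kupffer, 2 of 6 endothelial and 2 of 7 lymphocyte markers passed as higher in females, 5 of 7 stellate and 2 of 5 cholangiocyte markers as lower, and of 8 hepatocyte markers 2 as higher and 1 as lower. Over all genes 16% passed as higher and 17% as lower in control females. The 1 pancreas acinar marker tested, Cela1, passed as lower, and 2 others, Ctrb1 and Cpa1, were at 0 in control males. No marker of the other lists was at 0 in either group, and the part of the markers in the sex differences of the synthetases was not tested.

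In a list of 13 scaffold, editing and related factors, which also holds the member Sars2, 1 was rhythmic in control females, against 12% of all genes: Aimp1, the complex scaffold, with an amplitude of 0.06 ± 0.05 in misaligned females and 0.19 ± 0.05 at a peak of 6.61 h in control females (SE, n = 18 each; adjusted p 0.0188 in controls). Aimp2 and Eef1e1, the other scaffolds, passed no rhythm test, and 0 of the 13 changed rhythm with misalignment by edgeR in either sex, against 0.192% of all genes in females and 9.23% in males, with 0 and 3 at an unadjusted p under 0.05. Of the 11 genes of the multisynthetase complex list, members included, 3 (Iars, Rars and Lars) changed rhythm in males, against 9.23% of all genes.

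Genes of the amino acid response were examined because ATF4 induces several synthetases. Of 30 such genes 2 were rhythmic in misaligned females, 4 in control females, 0 in misaligned males and 4 in control males, against backgrounds of 7.69, 12, 0.00664 and 10.8% of all genes. In males 3 of the 30 changed rhythm, close to the background of 9.23% of all genes. Atf5, an ATF4-induced transcription factor, was the 1 gene of the list that changed in males (adjusted p by edgeR 2.08e-05) and also differed between the sexes in that change (0.00373). It peaked at 7.01 ± 0.95 h in misaligned males with an amplitude of 0.34 ± 0.08, against 22.8 ± 0.58 h and 0.56 ± 0.08 in control males (SE, n = 18 each). Psph, a serine synthesis enzyme, and Eif4ebp1, a translation inhibitor, were the other genes of the list that changed in males (adjusted p 0.0151 and 0.0362). Eif2ak3, the PERK kinase of eIF2 alpha, was the 1 gene to change in males in a list of 7 made up of eIF2 alpha kinases, phosphatase subunits and Eif2s1, the gene of eIF2 alpha, with its peak at 9.38 ± 1.71 h in misaligned males, against 22.2 ± 0.74 h in control males (SE, n = 18 each; adjusted p by edgeR 0.000901).

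Between control females and control males, 15 of the 30 amino acid response genes differed, 3 higher and 12 lower in females, against 32.9% of all genes. Gpt2 (mitochondrial alanine transaminase) had a log2 difference of -0.60, Vldlr (a lipoprotein receptor) of 1.52, Stbd1 (a glycogen-binding protein) of -0.55 and Asns (asparagine synthetase) of -2.01. Of the 7 cytosolic elongation factors 4 were higher in control females (background 16% of all genes), among them Eef2 by 0.34. Of the 14 mitochondrial translation factors 5 were lower (background 17%), among them Tufm by -0.16. Of 17 tested tRNA modification and export genes, 3 differed, against 32.9% of all genes: Trmt6, Trmt1 and Qtrt1.

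Arntl and Dbp give the phase of the clock itself for reference. Arntl, the gene of BMAL1, peaked at 2.05 ± 0.77 h in misaligned males, against 20.4 ± 0.45 h in control males, and at 19.2 ± 0.50 h in misaligned females, against 21.5 ± 0.41 h in control females (SE, n = 18 each). Dbp, a clock output gene, peaked at 14.5 ± 1.199 h in misaligned males, against 7.88 ± 0.40 h in control males. The Tars peaks of 4.56 h in misaligned males and 20.98 h in control males, and of 18.8 h in misaligned females and 21.96 h in control females, thus lay within 3 h of the Arntl peak in each group.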

How the data were processed

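The members and gene lists, the tests and the alternatives were chosen with earlier results of these data known. Per the submitters' processing notes, the authors aligned reads with STAR 2.6.0c to GRCm38; the deposited files hold whole-number counts per gene, intron and junction, each as a stricter (MIN, used here) and a more inclusive (MAX, an alternative) set, and per the labels libraries were stranded with 150 bp paired reads. From these counts, genes were kept by filterByExpr of edgeR 4.0.16, scaled by TMM (factors 0.836 to 1.17) and fitted by a robust quasi-likelihood model with 24 group means, or with a mean, cosine and sine of 24 h per sex and treatment. Tests were 2-sided, adjusted by Benjamini-Hochberg over all tested genes of each of 12 comparisons, with a threshold of 0.05. Exon lengths and positions are from GENCODE vM21 and promoters from RefSeq GRCm38.p6. The script was tested on simulated data. Every member is named somewhere in text or figures; the 8 with the smallest p over the 12 comparisons, and the highest per length in each compartment, are described in full. Of other lists, Aimp1, Aimp2, Eef1e1 and up to 4 genes per list with the smallest p are named. Antisense counts were used as a check. Totals of the deposited counts are near equal across libraries, which does not give the depth at which each was sequenced. One member is counted in all totals, and its values are not reported here.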

Additional observations from a re-analysis of the deposited data

Results flagged for a closer look

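Tars differed between the sexes in how its rhythm changed with misalignment: the interaction had an adjusted p of 0.0035 by edgeR. Its peak stood 3.18 ± 0.80 h earlier in misaligned than in control females and 7.58 ± 1.34 h later, by the shorter way round the clock, in misaligned than in control males (SE, n = 18 each). Cars also differed, with an adjusted p of 0.0039: its peak stood 4.50 ± 0.95 h earlier in misaligned than in control females and 10.3 ± 1.07 h away from that of control males in misaligned males, where earlier and later are not resolved (SE, n = 18 each).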

How the results depend on the processing

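All values here are numbers of the 38 members called. None of the results reversed. The rhythm change in females (1 member) became 2 by DESeq2, 0 with clock time as a factor, 2 in a fit of the compared libraries alone and 2 with a filter at a mean of 5 CPM. The change in males (10) became 5 in the compared libraries alone and 5 with no filter. Rhythm in control males (6) became 2 in the compared libraries alone, that in misaligned females (4) became 2 with clock time as a factor, and that in misaligned males (0) became 1 by DESeq2 and 6 with molecular time. The cause of these shifts was not tested. Leaving out 1 library, or all libraries of 1 replicate number, gave 0 to 2 for the change in females, 0 to 2 for its difference between the sexes, 2 to 11 for the change in males, 3 to 10 for control females, 2 to 8 for control males, 1 to 5 for misaligned females, 0 to 1 for misaligned males and 4 to 12 for the sex difference in controls. Leaving out a replicate number removes 24 libraries and leaves 2 per clock time. With the replicate number as a block (replicate block), the counts were 1, 2, 10, 9, 6, 4, 0 and 11 in that order; same-numbered libraries correlated over 0.1 in 8 of 36 pairs (median -0.0243), so the numbers were not taken as pairs. Of the calls of single members under planned and added alternatives, 444 kept their side of the threshold and 108 lost it. An alternative with edgeR's older dispersion estimate was chosen after seeing the data. Mars2 is limited by depth, with 15 to 68 reads per library.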
